A study of Mus musculus with 12 samples.

Results

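The genes described here are 34 enzymes and regulators of sterol and fatty acid synthesis, taken by symbol from the 19439 gene rows of the deposited table; all 34 were found and all 34 passed the filter on low values. They fall into 5 roles. The 7 enzymes of the mevalonate pathway (Acat2, Hmgcs1, Mvk, Pmvk, Mvd, Idi1 and Fdps) and the 11 that turn its product into cholesterol (Fdft1, Sqle, Lss, Cyp51, Tm7sf2, Msmo1, Nsdhl, Hsd17b7, Ebp, Sc5d and Dhcr7) make up the 18 sterol enzymes. The 4 genes of fatty acid synthesis (Acss2, Acaca, Acacb and Fasn) and the 6 of elongation and desaturation (Elovl5, Elovl6, Scd1, Scd2, Fads1 and Fads2) make up the 10 fatty acid enzymes. The other 6 (Srebf1, Srebf2, Scap, Insig1, Insig2 and Stard4) act in or on the regulatory circuit that both branches share.

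The cells were 3T3 mouse embryonic fibroblasts, which grow without limit in culture, from 2 lines, one with wild-type p53 (WT) and one labelled p53 -/-, without p53 (p53-null). Each line was kept for 18 h in DMEM, a standard culture medium, holding 2 mM L-glutamine (complete) or none (glutamine-free), and before that both lines grew in the same medium with 25 mM glucose and 2 mM L-glutamine. Each of the 4 groups (WT complete, WT glutamine-free, p53-null complete and p53-null glutamine-free) held 3 libraries, 12 in all. Values are RPKM, read numbers divided by gene length and by the depth of the library, a level per length that allows levels of different genes to be compared.

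Cells build cholesterol from acetyl-CoA through mevalonate, farnesyl diphosphate, squalene and lanosterol, and they build fatty acids from the same acetyl-CoA through malonyl-CoA. Both branches are under the sterol regulatory element binding proteins (SREBPs), transcription factors made as membrane precursors in the endoplasmic reticulum. SCAP escorts the precursors to the Golgi for cleavage when membrane sterol is low, and INSIG proteins hold SCAP back when it is high; at promoters SREBPs act together with NF-Y, which binds CCAAT boxes. The 2 precursor genes share work unequally in textbook accounts, Srebf2 with sterol genes and Srebf1 with fatty acid genes, and cultured fibroblasts are a classic system for this feedback.

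Because members of both branches moved together in the WT line, their promoters were searched for 3 motifs. RefSeq start sites (GRCm38.p6) matched 27 of the 34 genes, with 35 windows of 300 bases, 250 before the start and 50 after it. The motif CCAAT, read on either strand, stood in at least 1 window of 14 of 15 matched sterol enzymes (93.3%), Acat2 being the exception, in 4 of 5 matched regulators (80.0%) and in 4 of 7 matched fatty acid enzymes (57.1%). Windows of the same length held it for 41.058% of all 27025 genes with a window and for 43.813% of the 8849 tested genes with one. Some windows lay inside genes. The only windows of Acaca and Acacb begin at 84195188 and 114165268, while the genes begin at 84129672 and 114146535. The CCAAT boxes of Dhcr7 stood only in the window that begins at 143829964, while the gene begins at 143823145. The only window of Tm7sf2 spans 6067801 to 6068100, while the gene, on the minus strand, begins at 6068373. Scd1, Scd2 and Fads1 had no window. The E-box CACGTG stood in 6 of the 27 genes (22.2%), against 12.182% of tested genes. The sterol regulatory element-like motif TCACNCCAC stood in 1 of the 27 (3.7%), Hmgcs1, against 1.333% of tested genes. A match is a description of letters in a window and was not tested for binding. Only these letters within the 300 bases were searched, so a gene without a match can still hold another form of an element. The 250 bases before the start are printed 5′ to 3′ for 1 gene of each kind, with the letters of any of the 3 motifs, on either strand, in capitals (ATTGG is CCAAT on the other strand): Hmgcs1 (chr13:119690101-119690350, plus strand) because it carries the sterol element-like motif, Nsdhl (chrX:72918271-72918520, plus strand) as the sterol enzyme after squalene with the largest WT change on the log2(RPKM + 1) scale, Insig1 (chr5:28071162-28071411, plus strand) as the regulator with the largest change in either line, and Fasn (chr11:120824548-120824797, minus strand) as a fatty acid gene that has CCAAT boxes and changed little.
Hmgcs1: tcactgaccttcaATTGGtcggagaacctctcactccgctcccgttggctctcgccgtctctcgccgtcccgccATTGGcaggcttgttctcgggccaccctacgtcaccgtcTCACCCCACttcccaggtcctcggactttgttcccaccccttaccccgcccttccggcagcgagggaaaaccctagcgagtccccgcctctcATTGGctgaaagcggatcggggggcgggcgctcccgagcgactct
Nsdhl: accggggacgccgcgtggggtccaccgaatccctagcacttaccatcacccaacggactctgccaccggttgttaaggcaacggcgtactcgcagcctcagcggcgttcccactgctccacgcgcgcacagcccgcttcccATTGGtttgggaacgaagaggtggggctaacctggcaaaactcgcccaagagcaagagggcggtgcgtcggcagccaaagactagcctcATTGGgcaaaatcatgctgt
Insig1: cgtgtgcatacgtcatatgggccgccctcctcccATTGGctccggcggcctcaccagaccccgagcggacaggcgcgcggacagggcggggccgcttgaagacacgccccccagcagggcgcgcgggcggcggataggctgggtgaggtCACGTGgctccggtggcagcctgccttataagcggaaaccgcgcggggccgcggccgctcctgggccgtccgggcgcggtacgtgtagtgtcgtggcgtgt
Fasn: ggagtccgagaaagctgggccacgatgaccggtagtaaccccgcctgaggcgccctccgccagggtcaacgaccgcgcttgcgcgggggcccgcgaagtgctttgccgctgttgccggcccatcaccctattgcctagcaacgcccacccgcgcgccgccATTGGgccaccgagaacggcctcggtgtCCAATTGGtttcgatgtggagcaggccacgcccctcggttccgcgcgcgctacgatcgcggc
In the Hmgcs1 window CCAAT boxes began at -237, -176 and -45 and the sterol element-like motif at -137, counted from the start at 0, with 1 more CCAAT box at 10. The Nsdhl window held CCAAT boxes at -109 and -20 and, after the start, at 8 and 34. Insig1 had a single CCAAT box at -216 and an E-box at -101. Fasn had 3 CCAAT boxes at -90, -62 and -59, the last pair overlapping on opposite strands. Over all windows of the matched genes, 46 CCAAT boxes began between -237 and 34, with a median of -61.

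The sum of RPKM ran from 284426 to 319735 per library, and the steps between low values put the depth at an estimated 37.7 to 46.9 M reads. Trp53 itself was at 58.5 ± 0.585 RPKM (mean ± SD, n = 3) in WT complete, 111.8 ± 2.22 in WT glutamine-free, 28.8 ± 0.873 in p53-null complete and 34.6 ± 0.614 in p53-null glutamine-free libraries; a sum over the whole gene cannot tell one exon from another. Separate cultures are not named for the libraries of a group, so the p-values cover the spread among these libraries alone, possibly a technical one, and since each genotype is 1 line, genotype and line cannot be told apart. Changes are on the log2(RPKM + 1) scale, on which the changes of genes at or below about 1 RPKM come out too small, with the standard error (SE) and the Benjamini-Hochberg adjusted p of a limma fit over 11461 genes. A gene was called higher or lower at an adjusted p under 0.05. In bulk RNA, fewer cells of a type and less RNA per cell cannot be told apart.

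Withdrawal of glutamine lowered nearly the whole set in WT cells. Of the 34 genes, 32 fell, 1 rose (Scap) and 1 was not called (Acaca), and 27 fell at least 2-fold (a log2 change of at least 1). The fall of Acss2 had to appear, because Acss2 passed the filter on low values only through its WT complete libraries. Among all tested genes 44% were called lower, 46% higher, 12.9% at least 2-fold lower and 9.75% at least 2-fold higher, so calls alone separate little here and the size of the falls carries the description. The median log2 change of the 34 was -1.64, against 0.01 over all tested genes. All 18 sterol enzymes fell, 17 of them at least 2-fold, with a median of -1.81. Of the 10 fatty acid enzymes, 9 fell, 5 at least 2-fold, with a median of -1.19. In mean RPKM the median falls of both branches lay closer, at 3.98-fold for the sterol and 3.41-fold for the fatty acid enzymes, of which 6 of 10 were then at least 2-fold lower, and a pseudocount of 0.1 gave medians of -1.93 and -1.44. For 33 of the 34 genes no WT glutamine-free library overlapped the WT complete libraries, against 90% of all tested genes.

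The same withdrawal moved the set far less in p53-null cells. There 27 of the 34 fell, 3 rose (Sc5d, Hsd17b7 and Elovl5) and 4 were not called (Pmvk, Mvd, Lss and Acacb), with 3 at least 2-fold lower (Idi1, Insig1 and Scd2) and 0 at least 2-fold higher. In that comparison 32% of all tested genes were called lower, 50% higher, 2.03% at least 2-fold lower and 1.27% at least 2-fold higher. The median log2 change was -0.23 over the 34, -0.30 over the sterol enzymes and -0.20 over the fatty acid enzymes, against 0.08 over all tested genes. The groups overlapped for Pmvk, Mvd and Lss and not for the other 31 of the 34, while 84% of all tested genes had groups that did not overlap. Under quantile normalization Mvd and Lss were called lower (-0.11 and -0.14, limma adjusted p = 0.0373 and 0.00132).

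**Figure D1:**
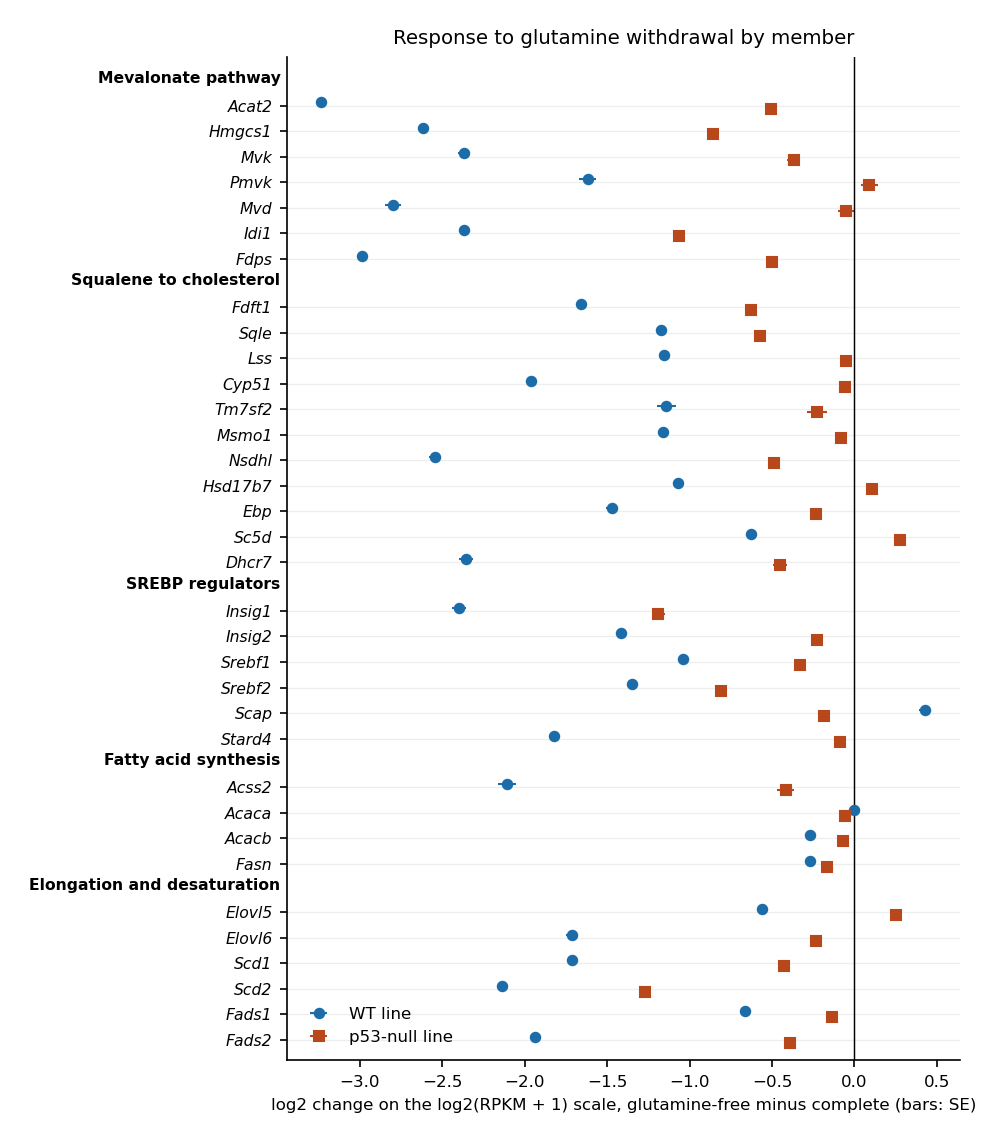
Change of each of the 34 genes on glutamine withdrawal, in log2(RPKM + 1) units, glutamine-free minus complete, for the WT line (circles) and the p53-null line (squares); bars are the standard error of the limma fit and most are smaller than the symbol. The WT points of the mevalonate genes lie between -3.23 and -1.62, while every p53-null point lies between -1.27 and 0.28.

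On the log2(RPKM + 1) scale the mevalonate pathway held the largest falls in the WT line, where the median log2 change was -2.62 over its 7 genes. In mean RPKM the largest WT fold of the 34 genes was that of Acss2, at 11-fold. Acat2, the cytosolic thiolase that joins acetyl-CoA units into acetoacetyl-CoA (chromosome 17, 12942890 to 12960747, minus strand, mm10), was at 102.5, 103.5 and 101.7 RPKM in the 3 WT complete libraries and at 10.3, 9.603 and 10.1 RPKM in the 3 WT glutamine-free libraries. In p53-null cells Acat2 was at 25.7, 26.3 and 26.5 RPKM in complete and 18.1, 18.1 and 18.2 RPKM in glutamine-free medium. WT cells thus held both the highest and the lowest Acat2 libraries, and no group overlapped another. Acat2 changed on the log2 scale by -3.23 ± 0.022 (SE) in WT cells, 10.2-fold in mean RPKM (limma adjusted p = 2.12e-18), and -0.50 ± 0.022 (SE) in p53-null cells (limma adjusted p = 2.53e-10). Of the 50-base words of the Acat2 transcripts, 39.1% also occur in Acat3 or Tcp1; Acat3 was at 0.763 ± 0.182 RPKM in WT complete libraries and Tcp1 went from 229.5 ± 1.82 to 190.8 ± 1.01 RPKM in WT cells.

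Idi1, the isopentenyl diphosphate isomerase (chromosome 13, 8885501 to 8892451, plus strand), was at 133.8, 131.7 and 129.5 RPKM in WT complete and 25.98, 24.3 and 23.8 RPKM in WT glutamine-free libraries. In p53-null cells Idi1 was at 14.6, 14.9 and 14.2 RPKM in complete and 6.31, 6.33 and 6.75 RPKM in glutamine-free medium. The 4 groups stood in that order with no overlap, and each line lost more than 2-fold. Idi1 changed on the log2 scale by -2.37 ± 0.032 (SE) in WT and -1.06 ± 0.032 (SE) in p53-null cells (limma adjusted p = 6.33e-16 and 8.09e-12), the largest fall of a sterol enzyme in the p53-null line. Pseudogenes such as Gm13502 and other transcripts share 25.29% of the Idi1 words, and 9.22% of its exon sequence lies under a gene on the other strand, which a kit that does not mark strand cannot separate.

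Pmvk, the phosphomevalonate kinase, was at 32.1, 31.8 and 32.7 RPKM in WT complete and 9.88, 9.48 and 10.1 RPKM in WT glutamine-free libraries. In p53-null cells Pmvk was at 4.36, 5.17 and 4.33 RPKM in complete and 5.26, 4.82 and 4.83 RPKM in glutamine-free medium, so both p53-null groups were low and overlapped. It had the smallest WT fall of the mevalonate genes, -1.62 ± 0.05 (SE) (limma adjusted p = 2.08e-12), and in p53-null cells its change of 0.091 ± 0.05 (SE) was not called (limma adjusted p = 0.112), except without the second p53-null complete library, where its log2 value was 0.16 (limma adjusted p = 0.0015).

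The other mevalonate genes, chosen here after their values were seen, all fell in WT cells and differed in how the groups ranked. In WT cells 44% of all tested genes were called lower. Fdps, the farnesyl diphosphate synthase, fell from 206.7 ± 1.11 to 25.2 ± 0.3804 RPKM (mean ± SD, n = 3) in WT cells, 8.21-fold, and from 30.9 ± 0.668 to 21.5 ± 0.128 RPKM in p53-null cells, 1.43-fold. Hmgcs1, the HMG-CoA synthase of the pathway, fell from 158.3 ± 2.33 to 25 ± 1.06 RPKM in WT and from 20.8 ± 0.803 to 11 ± 0.317 RPKM in p53-null cells. The kinase gene Mvk fell from 22.6 ± 0.228 to 3.58 ± 0.141 RPKM in WT and from 8.36 ± 0.356 to 6.25 ± 0.355 RPKM in p53-null cells. Each of the 3 started lower in p53-null than in WT cells; the p53-null complete level of Hmgcs1 was below its WT glutamine-free level, while those of Fdps and Mvk were above it. Mvd, the decarboxylase that yields isopentenyl diphosphate, fell 7.94-fold in WT cells, from 47.3 ± 0.876 to 5.96 ± 0.438 RPKM, and was at 5.28 ± 0.1601 and 5.07 ± 0.395 RPKM in p53-null cells, a change that was not called (limma adjusted p = 0.357). Words shared with transcripts of other genes make up 26.19% of Fdps and 11.57% of Hmgcs1.

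The steps from squalene to cholesterol fell in all 11 genes in the WT line, where the median log2 change was -1.17, a smaller fall than that of the mevalonate genes. In that line 44% of all tested genes were called lower. Nsdhl, a sterol dehydrogenase that takes part in removing methyl groups (chromosome X, 72918557 to 72958514, plus strand), was at 29.3, 28.9 and 28.6 RPKM in WT complete and 4.01, 4.25 and 4.14 RPKM in WT glutamine-free libraries. In p53-null cells Nsdhl was at 13.6, 12.9 and 13.2 RPKM in complete and 8.54, 9.42 and 9.55 RPKM in glutamine-free medium. The WT glutamine-free libraries were the lowest of the 12 and no group overlapped. Nsdhl changed on the log2 scale by -2.54 ± 0.036 (SE) in WT and -0.49 ± 0.036 (SE) in p53-null cells (limma adjusted p = 9.77e-16 and 4.29e-08).

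Fdft1, the squalene synthase that commits farnesyl diphosphate to sterols (chromosome 14, 63145150 to 63179578, minus strand), was at 56.3, 55.9 and 55.1 RPKM in WT complete and 16.8, 16.4 and 17.7 RPKM in WT glutamine-free libraries. In p53-null cells Fdft1 was at 11.6, 12.7 and 11.9 RPKM in complete and 7.54, 7.44 and 7.39 RPKM in glutamine-free medium, again without overlap between groups. Fdft1 changed on the log2 scale by -1.66 ± 0.031 (SE) in WT and -0.63 ± 0.031 (SE) in p53-null cells (limma adjusted p = 1.33e-14 and 7.41e-10), the largest p53-null fall among these 11 genes. The neighbour Ctsb covers 18.31% of the Fdft1 exon sequence on the other strand and fell as well, from 85.5 ± 0.39 to 48.4 ± 1.07 RPKM in WT and from 104.5 ± 0.702 to 78.97 ± 1.21 RPKM in p53-null cells; its part in the Fdft1 values was not tested.

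A pair of late enzymes moved in opposite directions in the lines. Sc5d, the sterol desaturase that acts just before Dhcr7, was at 43.7, 43.6 and 43.6 RPKM in WT complete and 28.4, 27.8 and 27.5 RPKM in WT glutamine-free libraries. In p53-null cells Sc5d was at 19.6, 20.2 and 19.8 RPKM in complete and 24.2, 24.3 and 24.1 RPKM in glutamine-free medium. It fell in WT cells (-0.63 ± 0.016 (SE), limma adjusted p = 3.14e-13) and rose in p53-null cells (0.28 ± 0.016 (SE), limma adjusted p = 4.09e-09), with no overlap in either line, and the difference of the responses was -0.90 ± 0.023 (SE) (limma adjusted p = 1e-12). Hsd17b7, a reductase of the same demethylation complex as Nsdhl, was at 9.31, 9.45 and 9.61 RPKM in WT complete and 4.16, 3.93 and 3.88 RPKM in WT glutamine-free libraries. In p53-null cells Hsd17b7 was at 2.18, 2.43 and 2.201 RPKM in complete and 2.52, 2.56 and 2.48 RPKM in glutamine-free medium, close to each other but not overlapping. Its WT fall was -1.07 ± 0.035 (SE) (limma adjusted p = 3.1e-12) and its p53-null rise 0.11 ± 0.035 (SE) (limma adjusted p = 0.0121), a call that was lost without the first p53-null complete library (limma adjusted p = 0.0529).

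The remaining enzymes after squalene, named after their values were seen, differed more in their WT than in their p53-null falls. In mean RPKM the WT falls ran from 2.25-fold (Msmo1) to 7.17-fold (Dhcr7). The p53-null folds ran from 1.04 (Lss, not called) to 1.51 (Sqle). Dhcr7, the reductase of the final step, fell 7.17-fold in WT cells, from 14.3 ± 0.2501 to 1.996 ± 0.17 RPKM, and from 6.65 ± 0.1804 to 4.604 ± 0.256 RPKM in p53-null cells. Cyp51, the lanosterol demethylase, fell from 63.8 ± 0.633 to 15.7 ± 0.296 RPKM in WT cells. In p53-null cells Cyp51 was at 23.6 ± 0.276 and 22.6 ± 0.584 RPKM, a log2 change of -0.059 ± 0.021 (SE) that was called (limma adjusted p = 0.0176). That p53-null call was lost without the second or the third complete or the first glutamine-free p53-null library (limma adjusted p = 0.0556, 0.0508 and 0.089) and when all libraries were rescaled to one sum of RPKM (limma adjusted p = 0.106). Msmo1, the methylsterol monooxygenase, fell from 134.1 ± 0.767 to 59.5 ± 0.653 RPKM in WT and from 31.5 ± 0.768 to 29.7 ± 0.638 RPKM in p53-null cells. Sqle, the squalene epoxidase and a rate-limiting enzyme of the branch, fell from 80.5 ± 0.858 to 35.1 ± 0.659 RPKM in WT and from 31.9 ± 0.425 to 21.1 ± 0.317 RPKM in p53-null cells. Its p53-null fall, -0.57 ± 0.018 (SE), was one of the larger in that line (limma adjusted p = 1.11e-11). Lss, the lanosterol synthase, fell from 20.7 ± 0.574 to 8.74 ± 0.172 RPKM in WT cells and was at 6.47 ± 0.307 and 6.22 ± 0.105 RPKM in p53-null cells, where the groups overlapped. Ebp, the sterol isomerase, fell from 16.03 ± 0.317 to 5.15 ± 0.379 RPKM in WT and from 20.5 ± 0.332 to 17.3 ± 0.307 RPKM in p53-null cells, the only sterol enzyme with a higher mean in p53-null than in WT complete libraries. Tm7sf2, a sterol reductase, was the lowest of the 18, falling from 2.77 ± 0.0644 to 0.714 ± 0.178 RPKM in WT and from 2.19 ± 0.0425 to 1.72 ± 0.0619 RPKM in p53-null cells. Words shared with Vps51 make up 9.87% of Tm7sf2. Vps51 fell from 12.7 ± 0.308 to 6.01 ± 0.314 RPKM in WT and from 8.22 ± 0.0771 to 3.44 ± 0.223 RPKM in p53-null cells. Its part in the Tm7sf2 values was not tested.

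**Figure D2:**
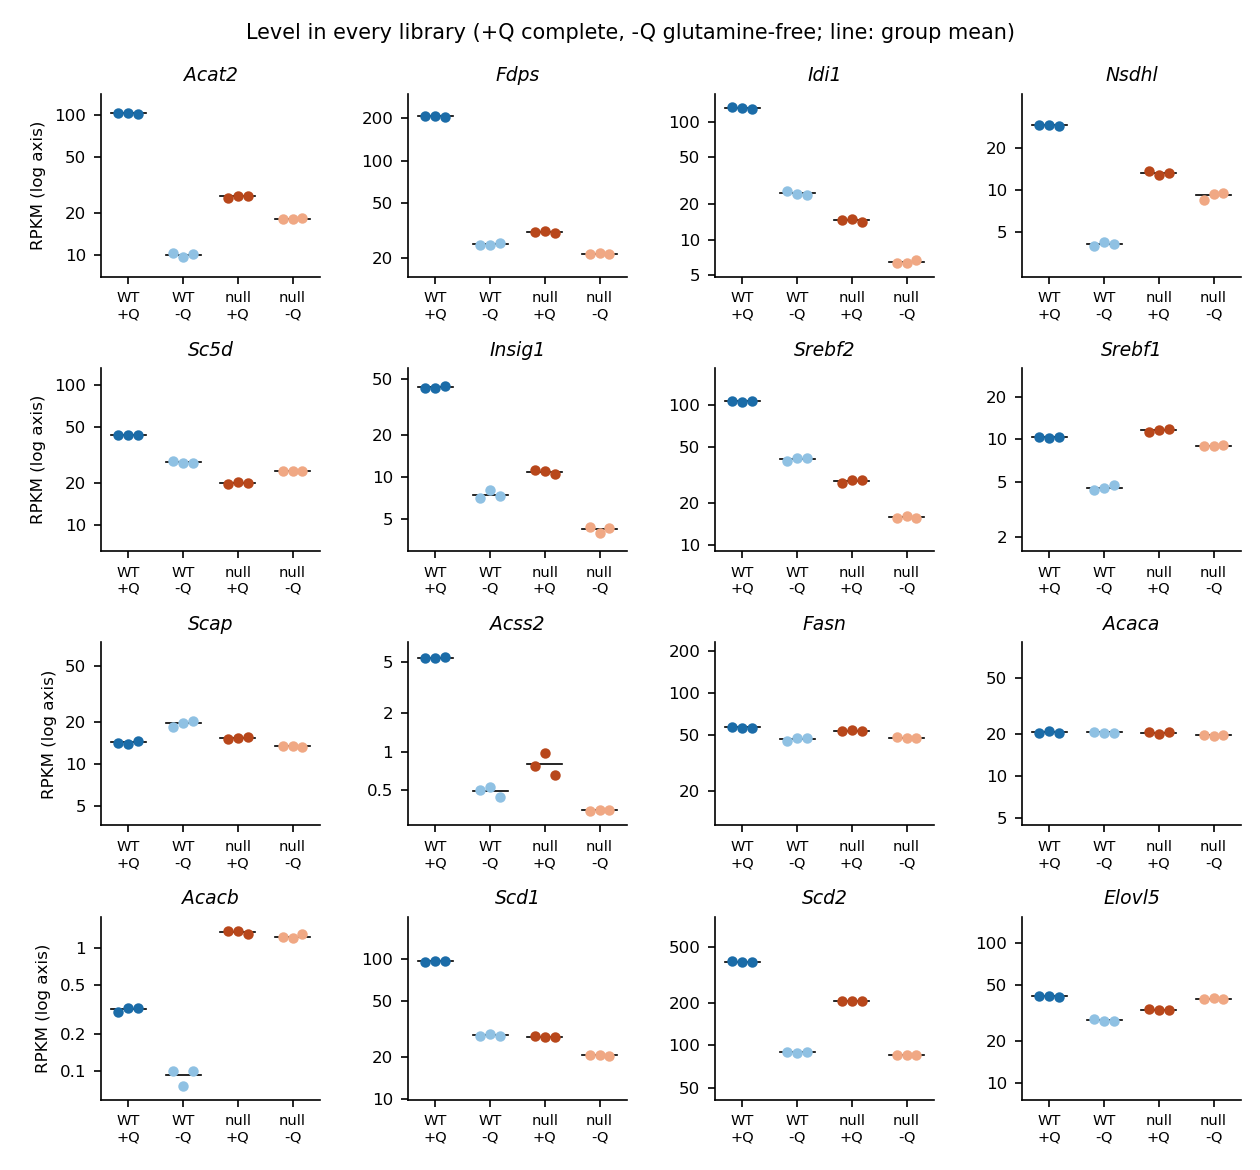
RPKM (log axis, a separate range per panel) of 16 of the genes in each of the 12 libraries, by line and medium (+Q complete, -Q glutamine-free); dots are libraries and lines are group means. Acat2, Nsdhl and Acacb have their lowest libraries in WT glutamine-free medium, Sc5d and Elovl5 fall in the WT line and rise in the p53-null line, and Acaca stays between 19.1 and 20.7 RPKM in all 12 libraries.

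Among the regulators, 5 of 6 fell in WT cells and all 6 fell in p53-null cells. Of all tested genes, 44% were called lower in WT and 32% in p53-null cells. Insig1, the SREBP target whose product retains SCAP (chromosome 5, 28071363 to 28078662, plus strand), was at 43.4, 43.2 and 44.9 RPKM in WT complete and 7.13, 8.04 and 7.36 RPKM in WT glutamine-free libraries. In p53-null cells Insig1 was at 11.2, 11.1 and 10.5 RPKM in complete and 4.39, 3.99 and 4.32 RPKM in glutamine-free medium. No group overlapped, and the p53-null glutamine-free libraries were the lowest. The fall was 5.84-fold in mean RPKM in WT cells and 2.58-fold in p53-null cells, the largest p53-null fold among the 34 genes. Insig1 changed on the log2 scale by -2.40 ± 0.041 (SE) in WT and -1.19 ± 0.041 (SE) in p53-null cells (limma adjusted p = 5.62e-15 and 2.43e-11).

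Insig2, the paralog with a similar retaining role, was at 19.1, 19.6 and 19.01 RPKM in WT complete and 6.92, 6.34 and 6.496 RPKM in WT glutamine-free libraries. In p53-null cells Insig2 was at 12.7, 12.97 and 13.6 RPKM in complete and 10.7, 11.1 and 11.3 RPKM in glutamine-free medium. Its levels did not overlap between any groups, and it kept more of its level than Insig1 in each line. Insig2 changed on the log2 scale by -1.41 ± 0.033 (SE) in WT and -0.23 ± 0.033 (SE) in p53-null cells (limma adjusted p = 1.13e-13 and 3.03e-05). In WT complete libraries Insig1 was the more abundant of the pair per length, while in p53-null glutamine-free libraries Insig2 was.

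Srebf2, the precursor gene tied to sterol synthesis, was at 107.5, 105.5 and 106.9 RPKM in WT complete and 39.6, 42.1 and 41.9 RPKM in WT glutamine-free libraries. In p53-null cells Srebf2 was at 27.7, 28.9 and 28.98 RPKM in complete and 15.7, 16.2 and 15.5 RPKM in glutamine-free medium. The groups were ordered WT complete, WT glutamine-free, p53-null complete and p53-null glutamine-free with no overlap. Srebf2 changed on the log2 scale by -1.35 ± 0.026 (SE) in WT and -0.81 ± 0.026 (SE) in p53-null cells (limma adjusted p = 1.46e-14 and 1.13e-11). Srebf1, the precursor gene tied to fatty acid synthesis, was at 10.4, 10.2 and 10.4 RPKM in WT complete and 4.33, 4.49 and 4.76 RPKM in WT glutamine-free libraries. In p53-null cells Srebf1 was at 11.3, 11.7 and 11.9 RPKM in complete and 8.92, 9.04 and 9.15 RPKM in glutamine-free medium. Unlike Srebf2, it was higher in p53-null than in WT libraries in each medium, with no overlap. Srebf1 changed on the log2 scale by -1.04 ± 0.03 (SE) in WT and -0.33 ± 0.03 (SE) in p53-null cells (limma adjusted p = 9.03e-13 and 2.86e-07).

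Scap, the escort of the precursors, was at 14.1, 13.9 and 14.7 RPKM in WT complete and 18.4, 19.7 and 20.3 RPKM in WT glutamine-free libraries. In p53-null cells Scap was at 15.1, 15.4 and 15.7 RPKM in complete and 13.4, 13.4 and 13.3 RPKM in glutamine-free medium. It was the only one of the 34 called higher on withdrawal in WT cells, and it fell in p53-null cells, with no overlap in either line. Scap changed on the log2 scale by 0.43 ± 0.031 (SE) in WT and -0.19 ± 0.031 (SE) in p53-null cells (limma adjusted p = 1.9e-08 and 9.31e-05), and the difference of the responses was 0.61 ± 0.044 (SE) (limma adjusted p = 2.48e-08). A gene on the other strand, 5830462I19Rik, covers 13.23% of the Scap exon sequence. Stard4, which carries sterol between membranes, was at 31.2, 30.7 and 30.2 RPKM in WT complete and 7.89, 7.96 and 8.04 RPKM in WT glutamine-free libraries. In p53-null cells Stard4 was at 7.85, 7.77 and 7.97 RPKM in complete and 7.41, 7.18 and 7.41 RPKM in glutamine-free medium. WT complete libraries stood alone at 30.3 to 31.3 RPKM, and the other 9 libraries lay between 7.18 and 8.04 RPKM. Stard4 changed on the log2 scale by -1.82 ± 0.021 (SE) in WT and -0.089 ± 0.021 (SE) in p53-null cells (limma adjusted p = 1.41e-16 and 0.00167).

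In fatty acid synthesis the enzyme that supplies cytosolic acetyl-CoA from acetate changed most in WT cells, Acaca and Fasn changed little, and Acacb fell at a level under 1 RPKM. The median log2 change over the 4 genes was -0.27 in WT and -0.12 in p53-null cells. Acss2, the acetyl-CoA synthetase, was at 5.44, 5.36 and 5.504 RPKM in WT complete and 0.505, 0.533 and 0.443 RPKM in WT glutamine-free libraries. In p53-null cells Acss2 was at 0.7797, 0.978 and 0.6598 RPKM in complete and 0.345, 0.352 and 0.351 RPKM in glutamine-free medium. WT complete libraries were far above all others, and the groups did not overlap within a line. Acss2 passed the filter only through its WT complete libraries, so its higher level there had to appear. In mean RPKM the fall was 11-fold in WT cells, the largest fold of the 34, and 2.31-fold in p53-null cells, with log2 changes of -2.11 ± 0.052 (SE) and -0.42 ± 0.052 (SE) (limma adjusted p = 2.06e-13 and 7.58e-06). Genes on the other strand cover 9.12% of its exon sequence.

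Acaca, the main acetyl-CoA carboxylase and the committed step of the branch (chromosome 11, 84129672 to 84401651, plus strand), was at 20.1, 20.7 and 20.3 RPKM in WT complete and 20.5, 20.3 and 20.2 RPKM in WT glutamine-free libraries. In p53-null cells Acaca was at 20.4, 19.99 and 20.4 RPKM in complete and 19.5, 19.1 and 19.6 RPKM in glutamine-free medium. The WT groups overlapped, and the p53-null glutamine-free libraries were lower than the complete ones by a small margin. For Acaca the log2 change was -0.0025 ± 0.018 (SE) in WT cells and was not called (limma adjusted p = 0.901); it turned to 0.0086 without the second WT complete library and to 0.0033 without the third WT glutamine-free library, and under quantile normalization it was -0.078 and called (limma adjusted p = 0.0014). The p53-null line showed a fall of Acaca: it fell by 0.058 (limma adjusted p = 0.00912), a call lost when libraries were rescaled to one sum (limma adjusted p = 0.12). Words shared with other transcripts, among them the pseudogene Gm5182, make up 30.43% of Acaca.

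Acacb, the mitochondria-associated carboxylase, was at 0.303, 0.324 and 0.326 RPKM in WT complete and 0.1, 0.0755 and 0.0995 RPKM in WT glutamine-free libraries. In p53-null cells Acacb was at 1.37, 1.38 and 1.29 RPKM in complete and 1.22, 1.202 and 1.29 RPKM in glutamine-free medium. Acacb passed the filter only through its p53-null libraries, so its higher level there had to appear. It fell in WT cells, 3.46-fold in mean RPKM at a level under 1 RPKM (-0.27 ± 0.032 (SE), limma adjusted p = 2.5e-06), and its p53-null change of -0.07 ± 0.032 (SE) was not called (limma adjusted p = 0.0575), although it was without the third p53-null complete or the third glutamine-free library (limma adjusted p = 0.036 and 0.0409) and with no filter (limma adjusted p = 0.0187). Fasn, the fatty acid synthase, named after its values were seen, was at 57.02, 56.1 and 56.5 RPKM in WT complete and 45.4, 47.5 and 47.6 RPKM in WT glutamine-free libraries. In p53-null cells Fasn was at 53.6, 53.8 and 53.7 RPKM in complete and 47.97, 47.9 and 47.3 RPKM in glutamine-free medium. It was lower without glutamine in each line without overlap, but only by 1.21-fold and 1.12-fold, with log2 changes of -0.27 ± 0.018 (SE) and -0.17 ± 0.018 (SE) (limma adjusted p = 6.74e-09 and 1.47e-06).

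The enzymes that lengthen and desaturate fatty acids fell in all 6 genes in the WT line, where the median log2 change was -1.71, and in 5 of 6 in p53-null cells, with a median of -0.31. The shares of all tested genes called lower were 44% in WT and 32% in p53-null cells. Scd1 and Scd2 encode stearoyl-CoA desaturases, which make monounsaturated fatty acids, and lie near each other on chromosome 19 (Scd1 at 44394455 to 44407879, minus strand, and Scd2 at 44293674 to 44306864, plus strand). Scd2 was at 398.9, 394.9 and 394.9 RPKM in WT complete and 89.8, 88.3 and 89.1 RPKM in WT glutamine-free libraries. In p53-null cells Scd2 was at 206.4, 207.6 and 206.6 RPKM in complete and 84.9, 84.7 and 85.7 RPKM in glutamine-free medium. It was the most abundant of the 34 genes in every library, and glutamine-free levels were close in the lines although complete levels were not. Scd2 changed on the log2 scale by -2.14 ± 0.011 (SE) in WT and -1.27 ± 0.011 (SE) in p53-null cells (limma adjusted p = 2.97e-19 and 4.68e-16), the latter the largest p53-null log2 fall of the 34. Scd1 was at 95.1, 96.2 and 95.9 RPKM in WT complete and 28.2, 29.04 and 28.1 RPKM in WT glutamine-free libraries. In p53-null cells Scd1 was at 28.2, 27.6 and 27.4 RPKM in complete and 20.4, 20.4 and 20.3 RPKM in glutamine-free medium. Only WT complete libraries were high, and p53-null complete levels were within the range of the WT glutamine-free libraries or just under it. Scd1 changed on the log2 scale by -1.71 ± 0.016 (SE) in WT and -0.43 ± 0.016 (SE) in p53-null cells (limma adjusted p = 3.04e-17 and 6.42e-11). Words shared with other Scd genes make up 4.56% of Scd1 and 3.97% of Scd2.

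Elovl6, which extends palmitate to stearate, was at 15.2, 15.5 and 15.3 RPKM in WT complete and 4.05, 3.96 and 3.92 RPKM in WT glutamine-free libraries. In p53-null cells Elovl6 was at 4.12, 4.44 and 4.54 RPKM in complete and 3.67, 3.39 and 3.62 RPKM in glutamine-free medium. As for Scd1, the WT complete libraries stood apart from the other 9. Elovl6 changed on the log2 scale by -1.71 ± 0.034 (SE) in WT and -0.23 ± 0.034 (SE) in p53-null cells (limma adjusted p = 2.04e-14 and 2.63e-05). Elovl5, which extends polyunsaturated fatty acids, was at 41.5, 42 and 41.4 RPKM in WT complete and 28.4, 27.7 and 27.7 RPKM in WT glutamine-free libraries. In p53-null cells Elovl5 was at 33.7, 33.04 and 33.4 RPKM in complete and 39.9, 40.2 and 39.5 RPKM in glutamine-free medium. It fell in WT and rose in p53-null cells, with no overlap in either line. Elovl5 changed on the log2 scale by -0.56 ± 0.015 (SE) in WT and 0.25 ± 0.015 (SE) in p53-null cells (limma adjusted p = 5.67e-13 and 6.02e-09), and the responses differed by -0.81 ± 0.022 (SE) (limma adjusted p = 1.58e-12).

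Fads1 and Fads2 encode the desaturases of polyunsaturated fatty acid synthesis. Fads2 was at 69.7, 70.2 and 69.7 RPKM in WT complete and 17.8, 17.9 and 16.7 RPKM in WT glutamine-free libraries. In p53-null cells Fads2 was at 41.3, 41.1 and 41.02 RPKM in complete and 29.7, 31.9 and 31.7 RPKM in glutamine-free medium. WT cells held both its highest and its lowest libraries. Fads2 changed on the log2 scale by -1.94 ± 0.028 (SE) in WT and -0.39 ± 0.028 (SE) in p53-null cells (limma adjusted p = 1.11e-15 and 2.7e-08). Fads1 was at 91.9, 89.1 and 89.8 RPKM in WT complete and 55.4, 56.6 and 57.9 RPKM in WT glutamine-free libraries. In p53-null cells Fads1 was at 54, 53 and 54.5 RPKM in complete and 48.6, 49.3 and 48.4 RPKM in glutamine-free medium. It fell less than Fads2 in each line, without overlap between media. Fads1 changed on the log2 scale by -0.66 ± 0.019 (SE) in WT and -0.14 ± 0.019 (SE) in p53-null cells (limma adjusted p = 7.1e-13 and 1.37e-05).

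Set side by side, the sterol branch dropped further in its sum than the fatty acid branch in WT cells. The summed RPKM of the 18 sterol enzymes was 1178, 1171 and 1165 in WT complete and 285.9, 282.9 and 283.6 in WT glutamine-free libraries. The 6 elongation and desaturation genes summed to 712.2, 707.7 and 706.9 RPKM in WT complete and to 223.7, 223.6 and 223.5 RPKM in WT glutamine-free libraries. The 4 fatty acid synthesis genes summed to 82.9, 82.5 and 82.6 RPKM and to 66.5, 68.4 and 68.3 RPKM in the same libraries. Sterol enzymes thus outweighed fatty acid enzymes in complete medium, by a ratio of 1.48 in each WT library, and not after withdrawal, when the ratio was 0.97 to 0.99. In p53-null cells the sterol sum was 280.5, 284.5 and 277.6 RPKM in complete and 217.7, 221.0 and 221.8 RPKM in glutamine-free medium. The elongation and desaturation sum there was 367.7, 366.8 and 367.5 RPKM in complete and 227.2, 230.0 and 229.2 RPKM in glutamine-free medium, and Scd2 alone gave most of that drop. The ratio of sterol to fatty acid sums moved the other way, from 0.63 to 0.64 in p53-null complete to 0.73 to 0.74 in p53-null glutamine-free libraries. Scd2 weighs heavily in the ratios of both lines. In p53-null complete libraries it gave 206.9 of a fatty acid sum of 442.9 to 443.9 RPKM. In p53-null glutamine-free libraries it gave 85.1 of 296.2 to 298.5 RPKM. By median log2 change the sterol enzymes fell slightly more there (-0.30 against -0.20), so this ratio does not describe the typical gene of a branch. The sterol sum of p53-null cells in complete medium was close to that of WT cells without glutamine; these groups differ in both line and medium and were not compared by a test.

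**Figure D3:**
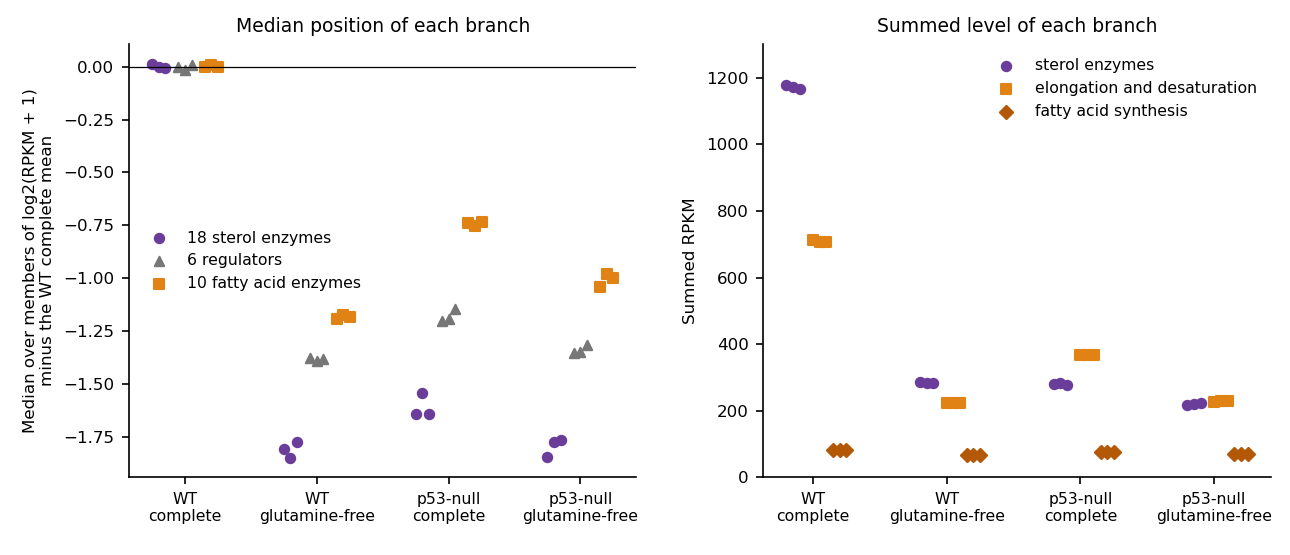
Left, the median over the 18 sterol enzymes, 6 regulators and 10 fatty acid enzymes of log2(RPKM + 1) minus the WT complete mean, for each of the 12 libraries; right, the summed RPKM of the sterol, elongation and desaturation, and fatty acid synthesis genes per library, on an axis that starts at 0. Sterol sums lie at 1165 to 1178 RPKM in WT complete libraries and at 217.7 to 285.9 RPKM in the other 9, while the fatty acid synthesis sums lie at 66.5 to 82.9 RPKM in all 12.

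The response to withdrawal was larger in the WT line than in the p53-null line for almost every gene. The difference of the responses, WT minus p53-null, was called below 0 for 32 of the 34, above 0 for Scap, and not called for Acaca, where 46.4% and 38.4% of all tested genes were called lower and higher. Its median was -1.51 over the sterol enzymes and -0.84 over the fatty acid enzymes, against -0.06 over all tested genes. For Acss2 a difference had to appear, because the gene passed the filter only through its WT complete libraries. Mvd had the largest difference, -2.75 ± 0.069 (SE) (limma adjusted p = 8.68e-13), followed by Acat2 with -2.73 ± 0.032 (SE) (limma adjusted p = 1.34e-15) and Fdps with -2.49 ± 0.024 (SE) (limma adjusted p = 3.89e-16). Among the called genes Fasn had the smallest, -0.10 ± 0.025 (SE) (limma adjusted p = 0.0023). Srebf2, with -0.54 ± 0.036 (SE), had a smaller value than any sterol enzyme (limma adjusted p = 1.29e-08). For Acaca the difference was 0.056 ± 0.025 (SE) (limma adjusted p = 0.0563), and it was called under 5 of the alternative settings described at the end.

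In complete medium the p53-null line held less of most of these transcripts than the WT line. Of the 34 genes, 29 were lower in p53-null cells, 22 at least 2-fold, 4 were higher (Ebp, Srebf1, Scap and Acacb), 0 at least 2-fold, and Acaca was not called. Acss2 passed the filter only through its WT complete libraries and Acacb only through its p53-null libraries, so their differences had to appear. Over all tested genes 42.5% were called lower, 48.4% higher, 10.9% at least 2-fold lower and 9.14% at least 2-fold higher. The median log2 difference, p53-null minus WT, was -1.61 over the sterol enzymes and -0.74 over the fatty acid enzymes, against 0.05 over all tested genes. Idi1 differed most, 9.03-fold in mean RPKM (-3.09 ± 0.032 (SE), limma adjusted p = 5.55e-17), and Mvd next, at 8.96-fold (-2.94 ± 0.049 (SE), limma adjusted p = 4.14e-15). Fasn was lower by a log2 difference of only 0.073 (limma adjusted p = 0.00166), and this sign flipped to 0.032 when libraries were rescaled to one sum of RPKM, while under quantile normalization the call was lost (limma adjusted p = 0.838); Acaca, at -0.0093, flipped to 0.092 under the same rescaling.

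In glutamine-free medium the lines differed in both directions. There 21 of the 34 were lower in p53-null cells, 4 at least 2-fold (Hmgcs1, Idi1, Fdft1 and Srebf2), 12 were higher, 2 at least 2-fold (Ebp and Acacb), and Fasn was not called, except under quantile normalization (0.071, limma adjusted p = 0.00154) and when libraries were rescaled to one sum of RPKM (0.17, limma adjusted p = 2.17e-07). The shares over all tested genes were 40% lower, 51.4% higher, 7.88% at least 2-fold lower and 10.7% at least 2-fold higher. On the log2(RPKM + 1) scale Idi1 again differed most, 3.82-fold lower in mean RPKM in p53-null cells (-1.78 ± 0.032 (SE), limma adjusted p = 1.21e-14), while Ebp was 3.36-fold higher (1.57 ± 0.036 (SE), limma adjusted p = 1.12e-13). In mean RPKM Acacb had the largest ratio, 13.5-fold higher in p53-null cells, against a WT level of 0.0917 ± 0.01401 RPKM. Acacb passed the filter only through its p53-null libraries, so its higher level there had to appear. Acat2, Mvk, Cyp51, Tm7sf2, Nsdhl, Dhcr7, Insig2, Elovl5 and Fads2, 9 genes of which 6 are sterol enzymes, were lower in p53-null cells in complete medium and higher in glutamine-free medium, a pattern called in 11.1% of all tested genes. Another 19 were lower in p53-null cells in both media, as were 27.8% of all tested genes. Small differences depended on the scaling: Scd2, Stard4 and Acaca, at log2 differences of -0.065, -0.10 and -0.065, turned to 0.082, 0.027 and 0.077 when libraries were rescaled to one sum of RPKM, and Scd2 to 0.11 under quantile normalization. The call of Acss2 in this comparison (-0.15 ± 0.052 (SE), limma adjusted p = 0.018) was lost without the second WT glutamine-free library (limma adjusted p = 0.0614), and under the rescaling the calls of Acss2, Mvd and Elovl6 were lost (limma adjusted p = 0.0817, 0.179 and 0.818).

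**Figure D4:**
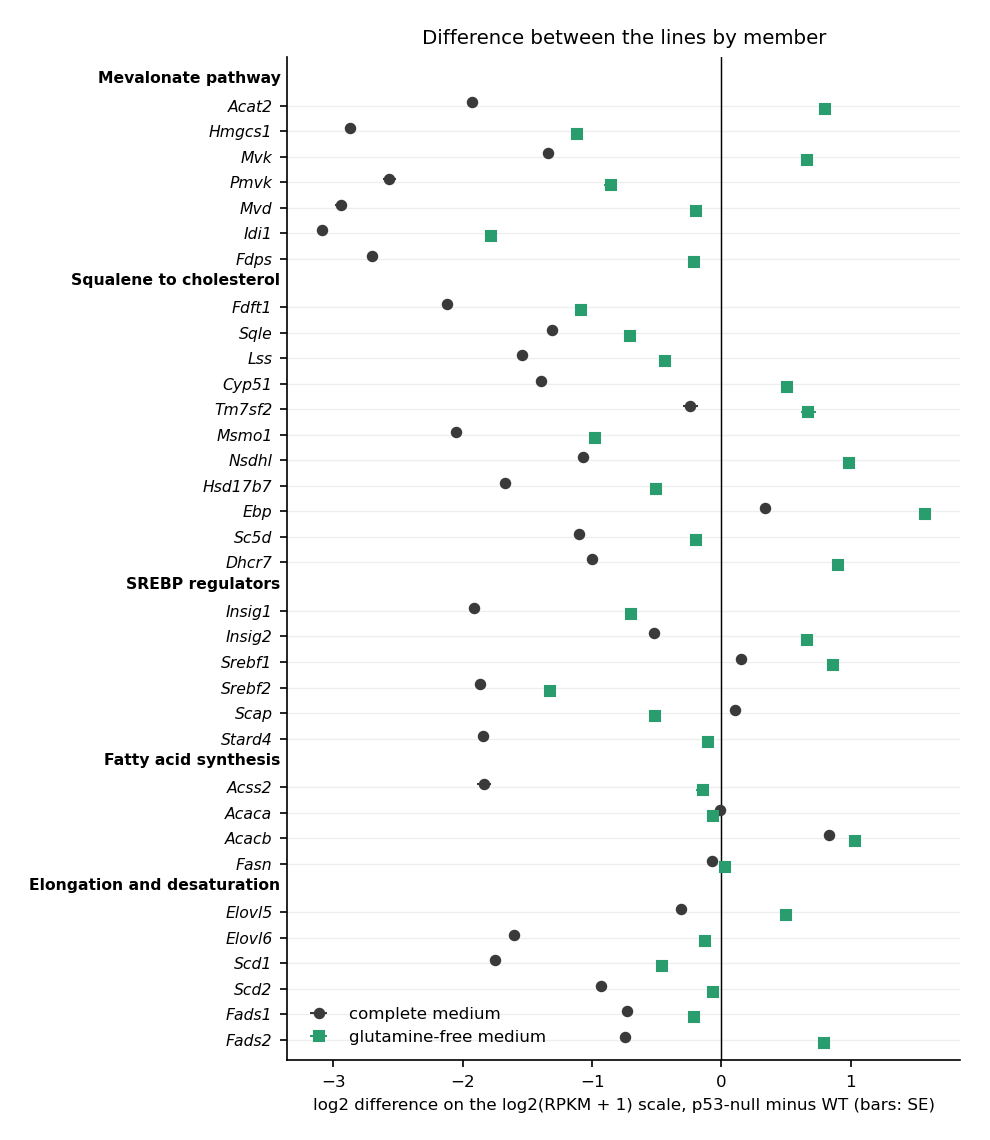
Difference between the lines for each of the 34 genes in log2(RPKM + 1) units, p53-null minus WT, in complete medium (circles) and glutamine-free medium (squares); bars are the standard error of the limma fit. In complete medium the sterol enzymes other than Ebp lie left of 0, down to -3.09 for Idi1, and in glutamine-free medium they spread from -1.78 for Idi1 to 1.57 for Ebp.

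Ranked by group means, 30 of the 34 genes were highest in WT complete libraries. The exceptions were Ebp, Srebf1 and Acacb, highest in p53-null complete, and Scap, highest in WT glutamine-free libraries. The lowest group was p53-null glutamine-free for 18 genes, WT glutamine-free for 13 and p53-null complete for Pmvk, Hsd17b7 and Sc5d. Ranks were not counted over all tested genes, so these counts have no share to stand against.

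Other genes of the pathways did not move as one. Of 21 further sterol genes (uptake, export, processing and esterification among them), 20 were in the table and 18 tested; 10 fell, 5 of them at least 2-fold, and 7 rose, 1 of them at least 2-fold, in WT cells, at a median of -0.17 on the log2 scale, where the shares over all tested genes were those given above, and in p53-null cells 9 fell and 8 rose, with a median of -0.06. The gene that rose at least 2-fold was Erlin1, a membrane protein of the endoplasmic reticulum that takes part in sterol-dependent degradation; it went from 20.4 ± 0.396 to 108.3 ± 0.654 RPKM in WT cells (2.35 ± 0.018 (SE), limma adjusted p = 6.26e-18) and from 21.7 ± 0.435 to 35 ± 0.438 RPKM in p53-null cells. The proteases that cleave SREBP precursors, named after their values were seen, did not share a direction: Mbtps1 went from 63.2 ± 0.356 to 54.5 ± 0.754 RPKM and Mbtps2 from 14.5 ± 0.422 to 25.8 ± 0.247 RPKM in WT cells. Of 31 further fatty acid genes, all in the table, 24 were tested; in WT cells 13 rose, 4 at least 2-fold, and 11 fell, 2 at least 2-fold, with a median of 0.08, and in p53-null cells 9 rose and 7 fell, with a median of 0.01. Over all tested genes 46% were called higher and 44% lower in WT cells, 9.75% and 12.9% at least 2-fold. In p53-null cells these shares were 50% higher and 32% lower. The WT split of the further fatty acid genes thus lies near that of all genes. Slc25a1, the citrate carrier that exports the carbon for cytosolic acetyl-CoA, fell from 57.7 ± 1.31 to 7.49 ± 0.35 RPKM in WT cells (-2.79 ± 0.037 (SE), limma adjusted p = 4.93e-16) and from 17.2 ± 0.6501 to 7.34 ± 0.3195 RPKM in p53-null cells. Lpin1, a phosphatidate phosphatase of lipid synthesis, fell from 12.1 ± 0.117 to 2.38 ± 0.0109 RPKM in WT cells (-1.95 ± 0.03 (SE), limma adjusted p = 1.99e-15), and Acsl3, an acyl-CoA synthetase, went from 15.3 ± 0.383 to 8.09 ± 0.265 RPKM in p53-null cells (-0.85 ± 0.025 (SE), limma adjusted p = 6.2e-12). Acly, which splits that citrate, named after its values were seen, fell from 84.8 ± 0.688 to 62.97 ± 1.04 RPKM in WT cells. The 4 that rose at least 2-fold there were also named after their values were seen: Mecr, an enzyme of mitochondrial fatty acid synthesis, went from 17.5 ± 0.689 to 47.5 ± 0.565 RPKM, the elongase Elovl4 from 7.42 ± 0.0211 to 16.3 ± 0.1799 RPKM and Fads3 of the desaturase family from 21.4 ± 0.252 to 43.98 ± 1.06 RPKM. The last, the elongase Elovl3, went from 0.0308 ± 0.00847 to 1.96 ± 0.2599 RPKM and passed the filter only through its WT glutamine-free libraries, so it had to differ.

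Markers of cell types moved with the medium and the line as well. Of 10 fibroblast markers 9 were tested, and all 9 fell in WT and 7 in p53-null cells, Col1a1 and Col6a1 most in WT cells. At least 2-fold falls numbered 9 in WT (median log2 change -3.01) and 4 in p53-null cells (median -0.79). Over all tested genes 44% were called lower in WT cells, 12.9% at least 2-fold, and 32% in p53-null cells, 2.03% at least 2-fold. The summed level of the fibroblast markers was 2122 to 2137 RPKM in WT complete, 231.7 to 238.1 in WT glutamine-free, 2048 to 2073 in p53-null complete and 959.3 to 986.4 in p53-null glutamine-free libraries. The near-equal sums in complete medium hide opposite differences: 8 of the 9 were lower in p53-null complete libraries (median log2 difference -1.72), among them Col1a2, at 711.6 ± 1.42 RPKM in WT and 29.5 ± 0.6195 RPKM in p53-null cells, while Vim was higher, at 760.0 ± 5.62 and 1730.0 ± 10.3 RPKM. In that comparison 42.5% of all tested genes were called lower and 48.4% higher. Of 10 adipocyte markers only Fabp4, Pparg, Cebpa and Lpl were tested, and Adipoq, Plin1, Lep, Cidec, Cd36 and Retn were at or near 0 in all groups. Fabp4 went from 22.7 ± 1.04 to 0.751 ± 0.248 RPKM in WT cells and was at 0.0969 ± 0.0214 RPKM in p53-null complete and listed at 0 in p53-null glutamine-free libraries, and the adipocyte sum was 24.8 to 26.8 RPKM in WT complete and 3.64 to 4.22 RPKM in WT glutamine-free libraries. In p53-null libraries that sum was 22.0 to 24.3 RPKM, mostly Lpl, which was at most 0.03 RPKM in WT libraries. Fabp4 passed the filter through its WT complete libraries and Lpl only through p53-null libraries, so their higher levels there had to appear. Of 6 epithelial markers Krt18 and Krt19 were tested, and the sum was 0.0691 to 0.253 RPKM in WT and 77.2 to 84.7 RPKM in p53-null libraries, while Epcam, Cdh1 and Cldn4 were near 0. Krt18 and Krt19 passed the filter only through p53-null libraries, so their higher level there had to appear. Hepatocyte markers, of which 4 of 6 were in the table, summed to at most 0.0438 RPKM. Their part in the sterol and fatty acid values was not tested.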

How the data were processed

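Polyadenylated RNA was converted to libraries from 0.5 ug of total RNA by an unstranded kit, per the labels' protocols. CASAVA 1.8, HISAT2 2.0.4 and Partek were used on mm10, per the submitters' processing notes; which annotation was counted, and how shared reads were treated, is not given in the sources used here. The authors deposited 1 RPKM value per gene and library, which keeps no read count. Only 53 to 56.9% of low values (under 0.5 RPKM) were whole reads within 0.05, so counts were not recovered, no count test was run, and precision is given as the SD over 3 libraries.

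RPKM values were transformed as log2(RPKM + 1). Genes reaching 1 RPKM in 3 or more of the 12 libraries, 11461 in all, were fitted on the means of the 4 groups with limma 3.58.1 in R 4.3.3 (mean-variance trend, Benjamini-Hochberg adjustment over all of them within a comparison), for the 2 medium comparisons, the 2 line comparisons and the difference of the medium responses. The script was tested on simulated data. Libraries of a group had 1.13 to 1.92 times the variance of pure counting (12 pairs), and libraries of different groups 30.88 to 190.71 times (54 pairs), as estimated from RPKM. Coordinates, overlaps with the other strand and shared words of 50 bases are from GENCODE M21 on GRCm38 (mm10); promoter windows are from RefSeq (GRCm38.p6).

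The genes, lists and motifs were chosen with earlier results of these data known, so counts over the genes carry no test. Values in every library are given for the largest fall and rise of each role in each medium comparison, every regulator, 6 paralog pairs, genes called in opposite directions in the lines, and the largest line difference in each medium. The largest medium changes of the other lists are named, with some such sterol genes not reported here. Alternatives were a pseudocount of 0.1, no filter, quantile normalization, rescaling to one sum of RPKM, a fit of only the 2 groups compared, the replicate number as a block, and each library left out in turn.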

Additional observations from a re-analysis of the deposited data

Results flagged for a closer look

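The difference of the responses to withdrawal, WT minus p53-null on the log2(RPKM + 1) scale, passed the limma test for every one of the 34 genes except Acaca. These 33 genes stand out because the same withdrawal gave a different change in the 2 lines. For Acss2 this had to appear, because the gene passed the filter only through its WT complete libraries. In the mevalonate pathway the difference was -2.73 for Acat2, -1.76 for Hmgcs1, -2.0 for Mvk, -1.71 for Pmvk, -2.75 for Mvd, -1.31 for Idi1 and -2.49 for Fdps. From squalene to cholesterol it was -1.03 for Fdft1, -0.60 for Sqle, -1.11 for Lss, -1.90 for Cyp51, -0.91 for Tm7sf2, -1.08 for Msmo1, -2.06 for Nsdhl, -1.17 for Hsd17b7, -1.24 for Ebp, -0.90 for Sc5d and -1.90 for Dhcr7. The regulators gave -1.21 for Insig1, -1.19 for Insig2, -0.71 for Srebf1, -0.54 for Srebf2, 0.61 for Scap and -1.74 for Stard4. The fatty acid enzymes gave -1.69 for Acss2, -0.20 for Acacb, -0.10 for Fasn, -0.81 for Elovl5, -1.48 for Elovl6, -1.29 for Scd1, -0.87 for Scd2, -0.52 for Fads1 and -1.55 for Fads2. Of all tested genes 84.9% passed the same test in either direction, so passing it is common and the sizes are what differ from gene to gene.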

How the results depend on the processing

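Values carry no read counts, lines and genotypes cannot be told apart, and libraries of a group may not be independent, which limits every comparison here. Rescaling all libraries to one sum of RPKM moved the median of all tested genes from 0.05 to 0.14 in the line comparison in complete medium and from 0.10 to 0.23 in glutamine-free medium, so small line differences are to be read against that shift. With it, fatty acid enzymes called higher in p53-null cells went from 1 to 2 in complete medium and from 3 to 6 in glutamine-free medium, those called lower in glutamine-free medium from 6 to 2, and their median there from -0.065 to 0.0795; quantile normalization gave 5 called higher there. With the rescaling to one sum, 6661 of all tested genes were called higher and 3813 lower in p53-null cells in glutamine-free medium, against 5890 and 4584 without it. The differences between lines that changed sign under rescaling were Acaca (0.092) and Fasn (0.032) in complete and Stard4 (0.027), Acaca (0.077) and Scd2 (0.082) in glutamine-free medium, and under quantile normalization Acaca (0.018) in complete and Scd2 (0.11) in glutamine-free medium. Leaving out 1 library at a time gave 1 to 2 sterol enzymes called higher on withdrawal in p53-null cells and 0 to 1 fatty acid enzymes called above 0 in the difference of the responses, the 1 being Acaca, which was also called with no filter (1) and with quantile normalization (1). The Acaca change on withdrawal in WT cells ran from -0.0103 to 0.0086, with 0.0033 without the third WT glutamine-free library, and its line difference in complete medium from -0.0171 to 0.0018, both highest without the second WT complete library. The cause was not tested. Replicate numbers did not pair the libraries: deviations of same-numbered libraries correlated at -0.1 to 0.098 and others at -0.121 to 0.143, and 13 of 36 checks were best with their own number. A fit with the replicate number as a block left all 20 counts and the calls of all 170 results for single genes as they were, with 18 sterol enzymes called lower on withdrawal in WT cells.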
